A study of Mus musculus with 71 samples.

Results

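The jejunal epithelium of Btnl2-KO mice was compared with that of wild-type (WT) mice by RNA sequencing. There were 6 libraries, 3 of each genotype, of 71 samples in the series. The 6 were chosen by their labels alone, which give intestinal epithelial cells (IECs) of the jejunum, the genotype and an age of 7 weeks. The mice were C57BL/6, and the Btnl2-KO mice carried a null allele made by placing a LacZ reporter at the start codon, with a selection cassette and a human ubiquitin promoter behind it that stops transcription of the gene. The allele was carried in the germline, and so was not limited to the epithelium. By the study's methods, both genotypes were female littermates of heterozygous parents. IECs were the upper layer of a Percoll gradient after the epithelium had been shaken off in EDTA, so they were an enriched fraction and not sorted cells. The labels do not say whether each library came from 1 mouse, and p-values measure the spread between these libraries.

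The jejunum lies between duodenum and ileum, and its epithelium is renewed from crypt stem cells that give rise to absorptive enterocytes and to goblet, Paneth, enteroendocrine and tuft cells. Enterocytes take up sugars, peptides and fat, touch the intraepithelial lymphocytes (IELs) that sit between them, and can present antigen on MHC class II molecules. Butyrophilin-like (Btnl) proteins are surface molecules of the immunoglobulin superfamily. Btnl1, Btnl4 and Btnl6 of the gut epithelium shape the γδ IELs, and Btnl2 is known as an inhibitor of T cell activation. The Btnl genes lie beside the MHC class II genes on chromosome 17.

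One library went against its label. Values per library are given as CPM, counts scaled to library size by TMM over all 16 IEC libraries of the table, which adjusts for composition as well as depth. Btnl2 (gene identifier 547431, chr17:34354789-34369492, GRCm38) stood at 0.596 CPM in Btnl2-KO replicate 1, 18.8 in replicate 2 and 0.588 in replicate 3, against 25.7, 51.9 and 48.1 CPM in the 3 WT libraries. These were 17, 247 and 13 counts in Btnl2-KO and 811, 1643 and 871 in WT. The library labelled Btnl2-KO replicate 2 (library 1003474) thus held 44.9% of the WT mean, and the other 2 held 1.42% and 1.40%.

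A second readout also set this library apart. ID807225, an identifier that the table does not pair with a symbol, held 237, 1 and 296 counts in Btnl2-KO replicates 1 to 3 and 0, 17 and 0 counts in WT. It is present in Btnl2-KO libraries of the other segments as well, at 89 to 455 counts in their 5 libraries, whereas the 5 WT libraries held 0 to 4. The library labelled Btnl2-KO replicate 2 thus lay between the other Btnl2-KO libraries and WT for Btnl2, and within the range of WT for ID807225.

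Its segment markers differed too. Fabp6, the ileal bile acid-binding protein, stood at 467 CPM in this library, at 6.87 and 0.950 CPM in the other Btnl2-KO libraries and at 7.64, 20.2 and 4.37 CPM in WT jejunum, against 594 and 580 CPM in WT ileum. Slc10a2, the ileal bile acid transporter, was also highest in this library, with 34.0 CPM here and 0.317 to 1.23 CPM in the other 5. Gata4, a transcription factor of duodenum and jejunum that is low in ileum, stood at 36.3 CPM here, at 110 to 141 CPM in the other 5 jejunal libraries and at 35.3 and 29.9 CPM in WT ileum. The mean log2 level of 6 distal genes minus that of 7 proximal genes was 1.65 here and -1.73 to -0.918 in the other 5. It was 2.41 and 2.71 in WT ileum. The proximal mean alone did not set this library apart, at 3.98 here, 3.96 to 4.77 in the other 5, and 3.47 and 3.17 in WT ileum. Some genes were also far from their ileal level. Aadac stood at 112 CPM here and 3.44 and 3.06 CPM in WT ileum, and Reg1 at 34.6 against 1.26 and 1.64 CPM. Among the genes tested, 286 lay more than 2-fold above, and 30 more than 2-fold below, all 5 others (on CPM + 1), against at most 10 and 15 for any other jejunal library. Each result below is therefore given over all 3 Btnl2-KO libraries and over replicates 1 and 3 only.

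**Figure D1:**
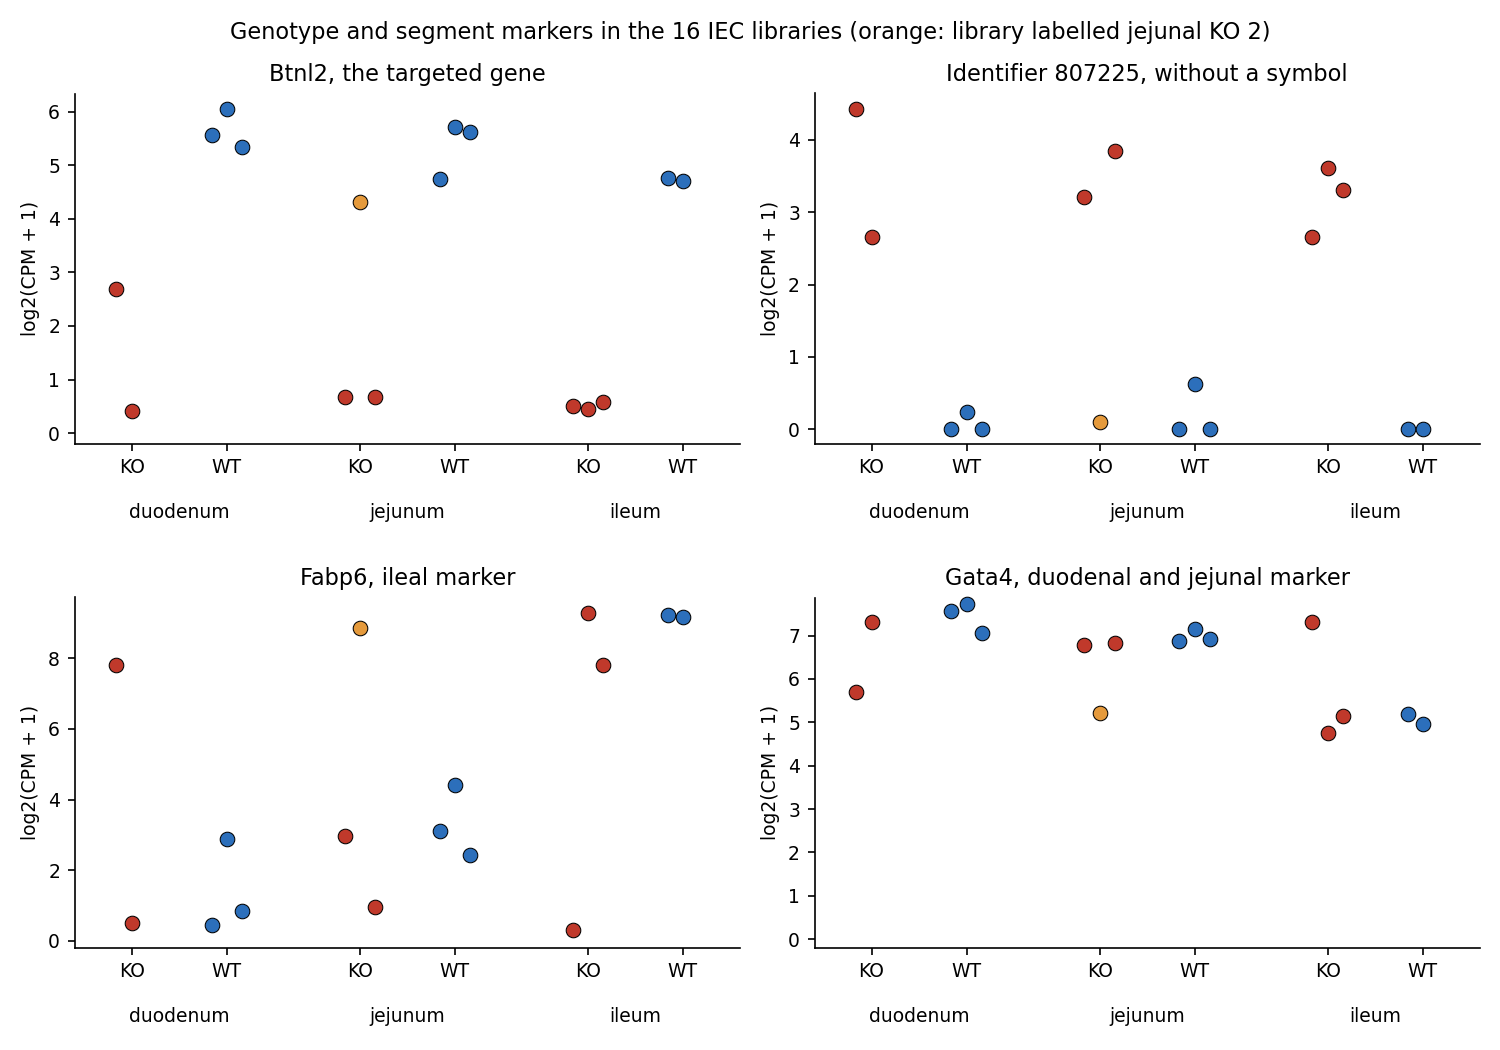
Levels of Btnl2, ID807225, Fabp6 and Gata4 on the log2(CPM + 1) scale in the 16 IEC libraries, by labelled segment and genotype, with 1 point per library. The library labelled jejunal KO 2 (orange) sits at 18.8 CPM of Btnl2, near 0 for ID807225, and with the ileal libraries for Fabp6 and Gata4.

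Depth was 17529694 to 30925521 counts per Btnl2-KO library and 22523036 to 29153075 per WT library. The epithelial label held in all 6: the 12 pan-epithelial markers (Epcam, Cdh1, Vil1 and others) were all tested and summed to 11672 to 13089 CPM in Btnl2-KO and 12241 to 15983 in WT, whereas 6 smooth muscle markers summed to at most 0.990 CPM and 8 exocrine pancreas markers to at most 0.0762 CPM in any library. Xist stood at 75.8 to 274 CPM, and none of 4 Y-linked genes exceeded 0.271 CPM in any library.

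Over replicates 1 and 3, Btnl2 averaged 0.592 ± 0.00568 CPM (SD, n = 2). WT libraries averaged 41.9 ± 14.2 CPM (SD, n = 3), which gives a difference of -6.13 on the log2 scale, SE 0.416. Replicate 2 was set aside because of its Btnl2 counts, so for this gene the comparison without it rests on the values that chose the libraries and is a description. Taking all 3 libraries, Btnl2-KO averaged 6.67 ± 10.5 CPM (SD, n = 3), and the difference of -2.74 on the log2 scale, SE 1.11, did not pass (edgeR FDR 0.568). The groups did not overlap either way. An exact two-sided permutation test of log2(CPM + 1) gave p = 0.1 over all 3, the smallest value that 3 against 3 libraries allow.

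Across the table, with an FDR below 0.05 and a fold change above 1.5 required, edgeR called 0 of 12543 genes (0.0%) when all 3 Btnl2-KO libraries were used, and 1 of 12744 (0.00785%) over replicates 1 and 3. That gene was Btnl2 itself, and nothing is read from its call. Other tools also called Erdr1 and Hbb-b1 over replicates 1 and 3 (DESeq2) and Erdr1 (limma-voom). At the unadjusted threshold, an edgeR quasi-likelihood value below 0.05 before adjustment, 769 genes were higher (6.13%) and 285 lower (2.27%) with all 3 libraries, and 464 were higher (3.64%) and 371 lower (2.91%) with replicates 1 and 3. Group ranges did not overlap for 1142 genes higher (9.1%) and 1046 lower (8.34%) in the first comparison, and for 1945 higher (15.3%) and 1794 lower (14.1%) in the second. These shares are the background for every list below. No gene named below other than Btnl2 passed the FDR in edgeR, where the lowest value of any other gene was 0.568 with all 3 libraries and 0.119 (Erdr1) with replicates 1 and 3.

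Genes at low p sorted by base composition. GC content was taken from the longest annotated transcript of each symbol (97.6% of genes tested had one). Of the 769 genes higher at the unadjusted threshold with all 3 libraries, 633 lay in the quartile of genes with the lowest GC content (up to 44.8%), and of the 285 lower, 216 lay in the quartile with the highest (from 54.2%). Median log2 fold changes ran from 0.31 in the lowest quartile to -0.22 in the highest. With replicates 1 and 3 the medians were 0.25 and -0.23. The slope was present in single libraries: in the lowest quartile, the median distance from the mean of the 6 libraries on the log2 scale was 0.09, 0.20 and 0.11 in Btnl2-KO and -0.01, -0.27 and -0.11 in WT, so the WT libraries lay below the Btnl2-KO libraries. The part of base composition in any single gene was not tested, but a fit with each library's GC trend taken out left 195 higher and 156 lower at the unadjusted threshold with all 3 libraries, and 146 and 188 with replicates 1 and 3, and is given below as the GC-corrected fit. It was added after the data had been seen.

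**Figure D2:**
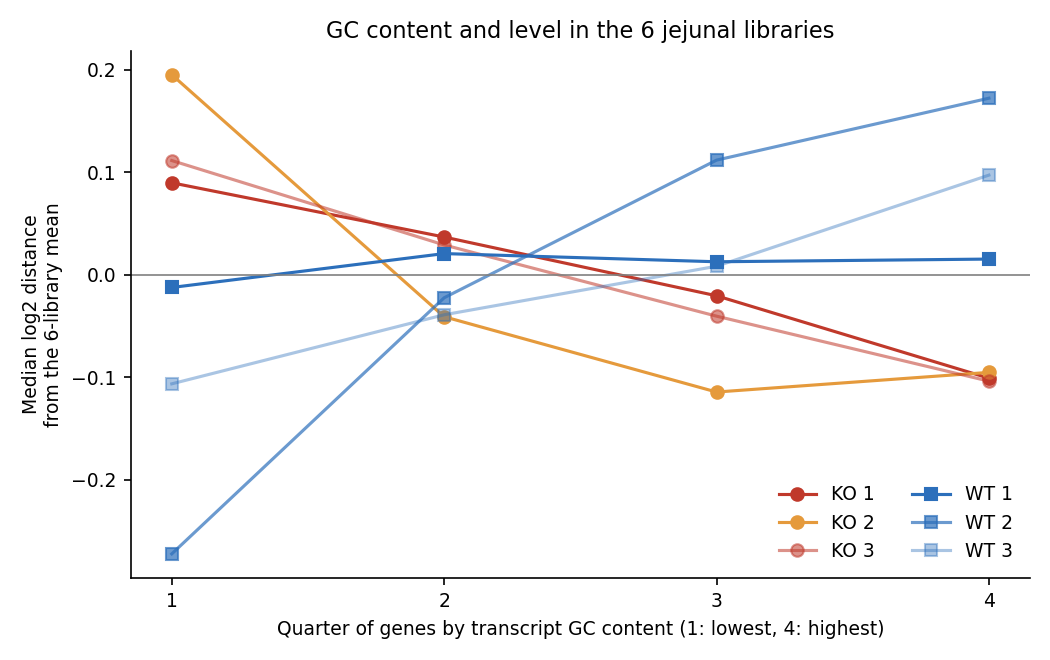
Median log2 distance of each jejunal library from the mean of the 6 libraries, for genes in 4 quartiles of transcript GC content. The 3 Btnl2-KO libraries (circles) decline from the lowest to the highest quartile, WT 2 and WT 3 (squares) climb, and WT 1 is nearly level.

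Of the MHC class II genes, 6 had lower levels in Btnl2-KO replicates 1 and 3 than in every WT library, and in the library labelled replicate 2 this held for H2-DMa alone among them. MHC class II molecules show peptides to CD4 T cells: H2-Aa, H2-Ab1 and H2-Eb1 encode their chains, H2-DMa and H2-DMb1 the chains of the peptide loader, and Cd74 the invariant chain. Of 9 genes on the list, 8 were tested, and 6 of these 8 were lower at the unadjusted threshold over replicates 1 and 3 (beside 2.91% of all genes). With all 3 libraries 1 of the 8 (H2-DMa) was lower, beside 2.27% of all genes. The median log2 fold change of the 8 was -0.79 over replicates 1 and 3 and -0.39 over all 3, against -0.02 and -0.01 for all genes tested.

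H2-Eb1, H2-DMb1 and H2-Aa are shown by the 120 bases that precede their start sites (RefSeq, GRCm38.p6), because class II genes are known to share a pair of promoter elements, an X box bound by RFX and a CCAAT-containing Y box bound by NF-Y, to which the coactivator Ciita is recruited. Capitals mark matches, on either strand, to the X box core (11 bases, in which 3 may be any base) and to CCAAT. H2-Eb1 lies at chr17:34305747-34305866 (plus strand), H2-DMb1 at chr17:34153071-34153190 (plus strand) and H2-Aa at chr17:34287824-34287943 (minus strand).
H2-Eb1: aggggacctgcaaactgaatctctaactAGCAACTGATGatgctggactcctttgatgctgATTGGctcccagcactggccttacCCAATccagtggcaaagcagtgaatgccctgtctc
H2-DMb1: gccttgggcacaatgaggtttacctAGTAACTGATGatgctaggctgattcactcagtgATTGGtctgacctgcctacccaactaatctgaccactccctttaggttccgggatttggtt
H2-Aa: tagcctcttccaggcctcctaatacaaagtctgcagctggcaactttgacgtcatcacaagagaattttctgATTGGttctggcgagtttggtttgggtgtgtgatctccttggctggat
The X box core began 92 bases before the start of H2-Eb1 and 95 before that of H2-DMb1, and no match to it was found before H2-Aa. Of the 32851 promoters in the table, 0.341% hold it in a window of this length. CCAAT was found in all 3, and in 21.3% of all promoters. The same search found neither motif in the 120 bases before Btnl2 or Btnl1. Neither was found before the 2 listed start sites of H2-DMa, another of the 6 lower class II genes. Those 2 windows were chr17:34122712-34122831, which overlaps the gene Brd2, and chr17:34125398-34125517. H2-DMa runs to position 34139101, and no start site further along it was searched, so the absence holds for these 2 windows only.

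H2-Ab1 stood at 66.0, 165 and 94.1 CPM in Btnl2-KO replicates 1 to 3 and at 127, 176 and 156 CPM in WT. Replicates 1 and 3 lay below all WT libraries, and replicate 2 lay among them. The log2 fold change was -0.93, SE 0.210, over replicates 1 and 3 (edgeR FDR 0.667) and -0.49, SE 0.315, over all 3 (FDR 0.623). Cd74 had the same pattern, with 277, 698 and 389 CPM in Btnl2-KO and 550, 702 and 611 CPM in WT, and log2 fold changes of -0.89 and -0.44 (edgeR FDR 0.667 and 0.643). H2-Aa was measured at 55.9, 174 and 89.3 CPM in Btnl2-KO and 116, 180 and 114 CPM in WT (log2 fold changes -0.91 and -0.35), and H2-Eb1 at 58.2, 130 and 77.2 CPM against 113, 138 and 88.7 CPM (-0.73 and -0.34).

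The loader genes differed in one respect. H2-DMa stood at 20.4, 32.1 and 23.7 CPM in Btnl2-KO and 34.0, 48.1 and 32.9 CPM in WT, so that all 3 Btnl2-KO libraries lay below WT, and its log2 fold change was -0.79 over replicates 1 and 3 and -0.59 over all 3 (edgeR FDR 0.568). H2-DMb1 stood at 14.4, 30.8 and 20.2 CPM against 25.2, 38.2 and 27.0 CPM, with replicate 2 among the WT libraries. Ciita, the coactivator itself, was at 6.38, 22.1 and 16.5 CPM in Btnl2-KO and 18.6, 14.03 and 14.1 CPM in WT, and its groups overlapped in both comparisons. In the GC-corrected fit, 6 of the 8 genes were again lower at the unadjusted threshold over replicates 1 and 3, with a median of -0.65, and 0 of the 8 over all 3 libraries, with a median of -0.26. Class II levels also moved with segment markers: Cd74 stood at 682 and 921 CPM in WT ileum and 111 to 317 CPM in WT duodenum, and the distal-minus-proximal score of replicates 1 and 3 (-1.36 and -1.73) lay below that of every WT library (-1.12 to -0.918), on the proximal side. The part of segment in the class II values of all 3 Btnl2-KO libraries was not tested.

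**Figure D3:**
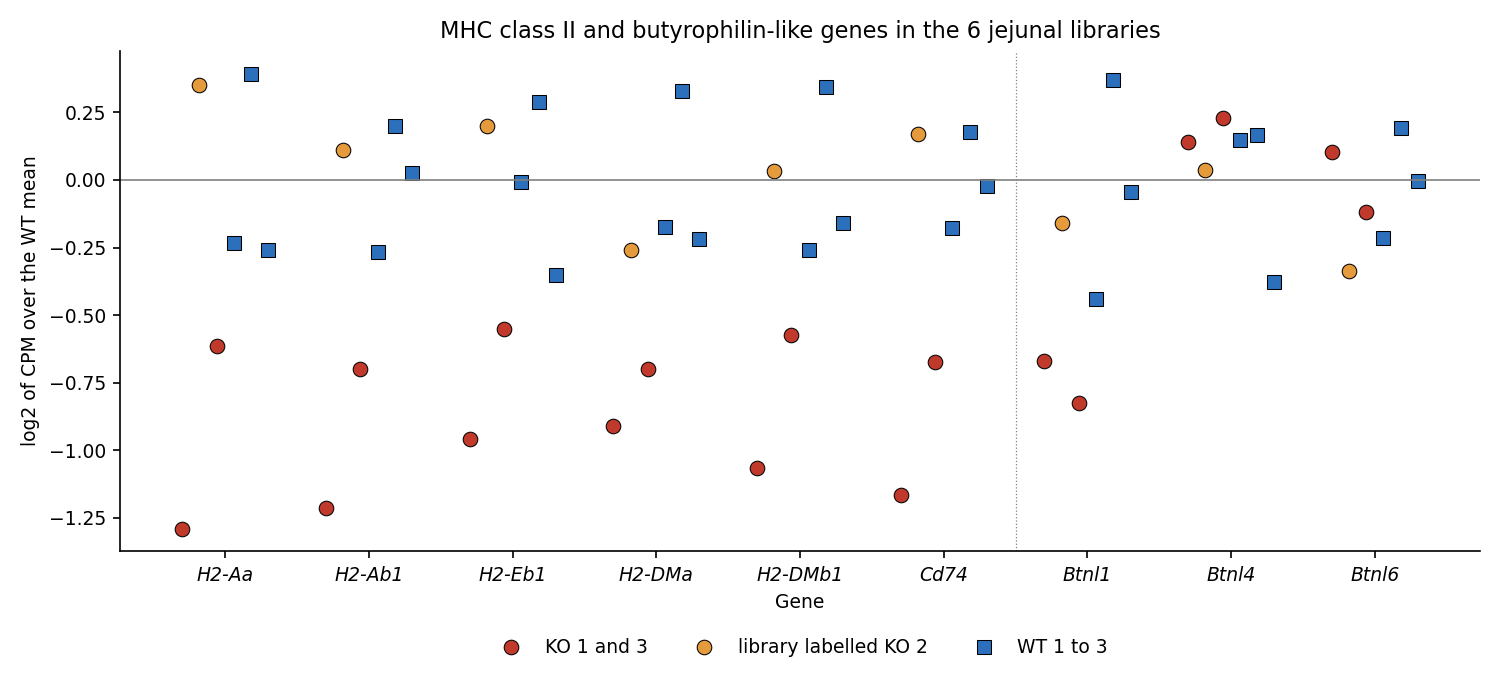
Level of 6 MHC class II genes and 3 Btnl genes in each of the 6 jejunal libraries, as log2 of CPM over the WT mean. Btnl2-KO 1 and 3 (red) lie below all WT libraries (squares) for the 6 class II genes and Btnl1, the library labelled KO 2 (orange) does so for H2-DMa and Btnl6, and for Btnl4 and Btnl6 the 3 Btnl2-KO libraries together overlap with WT.

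Among the Btnl genes beside Btnl2, Btnl1 had a lower level in replicates 1 and 3, while Btnl4, Btnl5-ps and Btnl6 overlapped with WT. Btnl1, the partner of Btnl6 in selecting Vγ7 IELs, stood at 68.6, 97.6 and 61.5 CPM in Btnl2-KO and 80.3, 141 and 106 CPM in WT. Its log2 fold change was -0.74, SE 0.230, over replicates 1 and 3 (edgeR FDR 0.667) and -0.51, SE 0.250, over all 3 (FDR 0.568). The GC-corrected value over replicates 1 and 3 was -0.66. Btnl6, at 118, 86.7 and 101 CPM in Btnl2-KO and 94.2, 125 and 109 CPM in WT, had a log2 fold change of 0.00, SE 0.165, over replicates 1 and 3. Btnl4 had 0.19, SE 0.184. Of 9 family members in the table, 6 were tested over replicates 1 and 3. Other than Btnl2, which chose the libraries and is not counted, only Btnl1 was lower at the unadjusted threshold, beside 2.91% of all genes. Because Btnl genes resemble each other in sequence, the share of reads given to each is uncertain.

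The wider neighbourhood of Btnl2 was also described. Within 1000 kb of Btnl2 on either side lay 129 other genes of the table, of which 84 were tested over replicates 1 and 3. None was higher and 12 were lower at the unadjusted threshold, beside 3.64% and 2.91% of all genes. The median log2 fold change was -0.25, against -0.02 for all genes. Beside the 5 class II genes of this stretch and Btnl1, already counted above, the 12 were Zfp414, Psmb8, Fkbpl, Hspa1b, Csnk2b and H2-D1. Psmb8 and H2-D1 are counted again in the class I list below. In the GC-corrected fit 8 of 81 were lower, 0 higher, and the median was -0.06. Of all 12437 genes in that fit, 188 were lower and 146 higher. Over all 3 Btnl2-KO libraries 4 of 83 were lower and 1 higher, beside 2.27% and 6.13% of all genes, with a median of -0.21. In the GC-corrected fit over all 3, 0 were lower and 2 higher, with a median of -0.04.

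Genes of the MHC class I pathway, which shows cytosolic peptides to CD8 T cells, mostly had negative log2 fold changes. All 13 were tested and 2 were lower at the unadjusted threshold over replicates 1 and 3 (beside 2.91% of all genes), with a median log2 fold change of -0.42. These were Psmb8, a subunit of the immunoproteasome, at 54.6, 85.3 and 65.7 CPM in Btnl2-KO and 85.2, 114 and 69.5 CPM in WT, and H2-D1, a class I heavy chain, at 204, 352 and 214 CPM against 245, 368 and 281 CPM. Over all 3 libraries 0 of 13 passed the unadjusted threshold and the median was -0.26. The GC-corrected medians were -0.26 and -0.11.

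Interferon-induced genes gave no common direction over all 3 libraries. Of 29 tested, 1 was higher (Ddx60) and 0 lower at the unadjusted threshold, with a median of -0.05. With replicates 1 and 3 alone, 0 were higher and 1 lower with a median of -0.16. The lower gene was Zbp1, a sensor of Z-form nucleic acids, at 6.66, 11.1 and 7.87 CPM in Btnl2-KO and 8.18, 15.01 and 16.6 CPM in WT, where replicate 2 lay among the WT libraries (log2 fold change -0.86, edgeR FDR 0.667). Log2 fold changes were negative for 18 of the 29 genes over all 3 libraries and for 23 over replicates 1 and 3. The GC-corrected median over replicates 1 and 3 was -0.15. There 3 genes lay wholly below WT and 2 wholly above, beside 14.1% and 15.3% of all genes.

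The direction of antimicrobial genes turned with the library labelled replicate 2. Over all 3 libraries 4 of 13 tested (Reg1, Reg4, Retnlb and Saa1) were higher at the unadjusted threshold and 0 lower, with a median of 0.14. Without replicate 2, 1 (Reg1) was higher and 3 (Nos2, Saa1 and Reg3g) were lower, with a median of -0.38. Reg1, a secreted protein of the Reg family, was higher in every Btnl2-KO library, at 27.6, 34.6 and 31.6 CPM against 14.4, 21.1 and 15.8 CPM in WT. Its log2 fold changes were 0.88 (SE 0.179, edgeR FDR 0.568) over all 3 and 0.80 (SE 0.185, FDR 0.667) over replicates 1 and 3. Reg1 also differed by segment, with 97.5 to 191 CPM in WT duodenum and 1.26 and 1.64 CPM in WT ileum. The part of segment in its jejunal values was not tested.

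The other antimicrobial genes at low p did not hold one side. Nos2, the inducible nitric oxide synthase, stood at 28.6, 98.4 and 23.8 CPM in Btnl2-KO and 34.0, 46.1 and 45.9 CPM in WT, and its log2 fold change was -0.67 over replicates 1 and 3 (edgeR FDR 0.667) and 0.27 over all 3. Saa1, an acute-phase protein, was at 25.8 CPM in the library labelled replicate 2 and at 0.210 to 0.571 CPM in the other 5, with log2 fold changes of -1.10 and 4.16. Reg3g, a lectin against Gram-positive bacteria, stood at 600, 2678 and 1068 CPM against 1497, 1212 and 1258 CPM. In all 3 genes replicate 2 was the highest library and replicates 1 and 3 lay below WT. WT ileum held 124 and 123 CPM of Nos2, and WT duodenum 7.50 to 12.2 CPM.

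Signals from epithelium to IELs had no common direction. Log2 fold changes ran from -1.01 to 0.67 over all 3 libraries (9 positive, 6 negative). Over replicates 1 and 3 they ran from -1.05 to 0.42 (7 positive, 8 negative). Of 15 tested genes, 0 were at the unadjusted threshold over all 3 libraries, and over replicates 1 and 3 Cxadr was higher and Btnl1 lower, with a median of 0.00 on the log2 scale. Cxadr, a junction protein bound by Jaml on γδ T cells, stood at 172, 145 and 155 CPM in Btnl2-KO and 139, 117 and 127 CPM in WT, without overlap, but its log2 fold change of 0.36 became 0.11 in the GC-corrected fit. Il15, which sustains IELs, was at 1.61, 2.67 and 1.85 CPM in Btnl2-KO and 1.05, 1.52 and 1.33 CPM in WT. It did not overlap either, with log2 fold changes of 0.65 and 0.42. Cxadr and Il15 were the 2 of 15 wholly above WT in each comparison, beside 9.1% and 15.3% of all genes. Of 10 genes for cytokines that the study examined, 5 were tested and 0 passed the unadjusted threshold in either comparison. The paper's methods measured cytokines as protein in homogenates of colon and ileum, which is a different measure from RNA of isolated epithelium.

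Markers of the absorptive lineage overlapped between the groups. Of 11 enterocyte markers (such as Alpi, Sis, Anpep and Fabp1), 0 were at the unadjusted threshold in either comparison, with medians of -0.41 over all 3 libraries and -0.10 over replicates 1 and 3. The WT libraries differed among themselves: the summed level of these markers was 3443 CPM in WT 1 and 8616 and 9252 CPM in WT 2 and WT 3, against 5514 to 7418 CPM in Btnl2-KO. Genes of uptake gave a like result. For fat absorption 0 of 17, for sugar absorption 0 of 8, and for peptide and amino acid absorption 0 of 13 genes passed the unadjusted threshold in either comparison.

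Among secretory cells, most enteroendocrine genes had negative and most Paneth genes positive log2 fold changes, without any passing the FDR. All 12 enteroendocrine genes were tested and 2 were lower in each comparison, with medians of -0.46 and -0.37. Chga, the general granule protein of these cells, stood at 46.3, 35.0 and 42.3 CPM in Btnl2-KO and 54.2, 54.97 and 81.1 CPM in WT (log2 fold changes -0.61 and -0.51, and -0.37 and -0.25 in the GC-corrected fit). The hormone gene Cck was the other with all 3 libraries (-0.69), and the hormone gene Pyy with replicates 1 and 3 (-0.98). Both were low, with Cck at 3.50 to 9.60 CPM and Pyy at 1.54 to 5.18 CPM.

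All 7 Paneth cell genes had a positive log2 fold change over all 3 libraries, with a median of 0.45, and 6 of 7 over replicates 1 and 3, with a median of 0.43. Only Ang4, an antimicrobial ribonuclease, was at the unadjusted threshold, with 808, 1329 and 384 CPM in Btnl2-KO and 391, 356 and 305 CPM in WT, where replicate 3 overlapped with WT (log2 fold changes 1.27 and 0.77, edgeR FDR 0.568 and 0.667). Of 8 goblet cell markers, 6 tested tuft cell markers and 8 stem cell markers, 0 were at the unadjusted threshold in either comparison, nor were any of 12 cell cycle genes. The goblet cell median changed sign, from 0.20 to -0.17, when replicate 2 was left out, and Muc2, the main gut mucin, was at 3405 CPM in that library and 977 to 1812 CPM in the other 5. In a list of 25 genes of IEC differentiation that the study examined, Gapdh was the 1 lower in each comparison and the medians were -0.05 and -0.11. That list was chosen by the study for these mice.

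Among stress genes at the unadjusted threshold in both comparisons, Chac1 (higher) and Bag3 (lower) did not overlap between the groups in either. Chac1, a glutathione-degrading enzyme induced by the unfolded protein and amino acid responses, stood at 5.57, 5.94 and 5.74 CPM in Btnl2-KO and 2.28, 2.401 and 2.93 CPM in WT. Its log2 fold change was 1.19, SE 0.215, over all 3 libraries (edgeR FDR 0.568) and 1.17 over replicates 1 and 3 (FDR 0.667), and 1.41 in the GC-corrected fit over all 3. The groups did not overlap and replicate 2 lay with the other Btnl2-KO libraries. Chac1 was the only one of 14 tested genes of endoplasmic reticulum stress at the unadjusted threshold. The median of the list was -0.10 over all 3 and -0.06 over replicates 1 and 3. Of the 14, 1 lay wholly above WT in each comparison, beside 9.1% and 15.3% of all genes. Wholly below WT lay 2 over all 3 and 3 over replicates 1 and 3, beside 8.34% and 14.1% of all genes.

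Of 8 heat shock genes tested, Bag3 and Hspa1b were lower at the unadjusted threshold over replicates 1 and 3, and Bag3 was lower and Hsp90aa1 higher over all 3. Bag3, a co-chaperone, stood at 32.6, 31.2 and 30.1 CPM in Btnl2-KO and 44.0, 43.6 and 51.7 CPM in WT, without overlap (log2 fold changes -0.56 in both comparisons, edgeR FDR 0.568 and 0.667). Hspa1b, an inducible Hsp70, was at 5.99, 10.7 and 3.12 CPM against 13.2, 9.38 and 9.62 CPM, and replicate 2 lay among WT. Hsp90aa1, an inducible Hsp90 (log2 fold changes 0.98 over all 3 and 0.42 over replicates 1 and 3), stood at 2468 CPM in replicate 2 and 643 to 1217 CPM in the other 5. Hspa1b has a near-identical neighbour, Hspa1a, so its reads are uncertain.

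Lipid, clock and other programmes stayed near the background. Of 12 genes of fatty acid oxidation and ketogenesis, and of 11 tight junction genes, 0 were at the unadjusted threshold in either comparison, nor were any of 13 immediate-early genes. Among 18 xenobiotic genes Tiparp, a target of the aryl hydrocarbon receptor, was higher in both (log2 fold changes 0.47 and 0.44, and 0.11 and 0.13 after GC correction). Of the circadian clock genes, 0 of 12 were at the unadjusted threshold over all 3 libraries and 1 of 13 over replicates 1 and 3 (Nr1d2, higher).

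**Figure D4:**
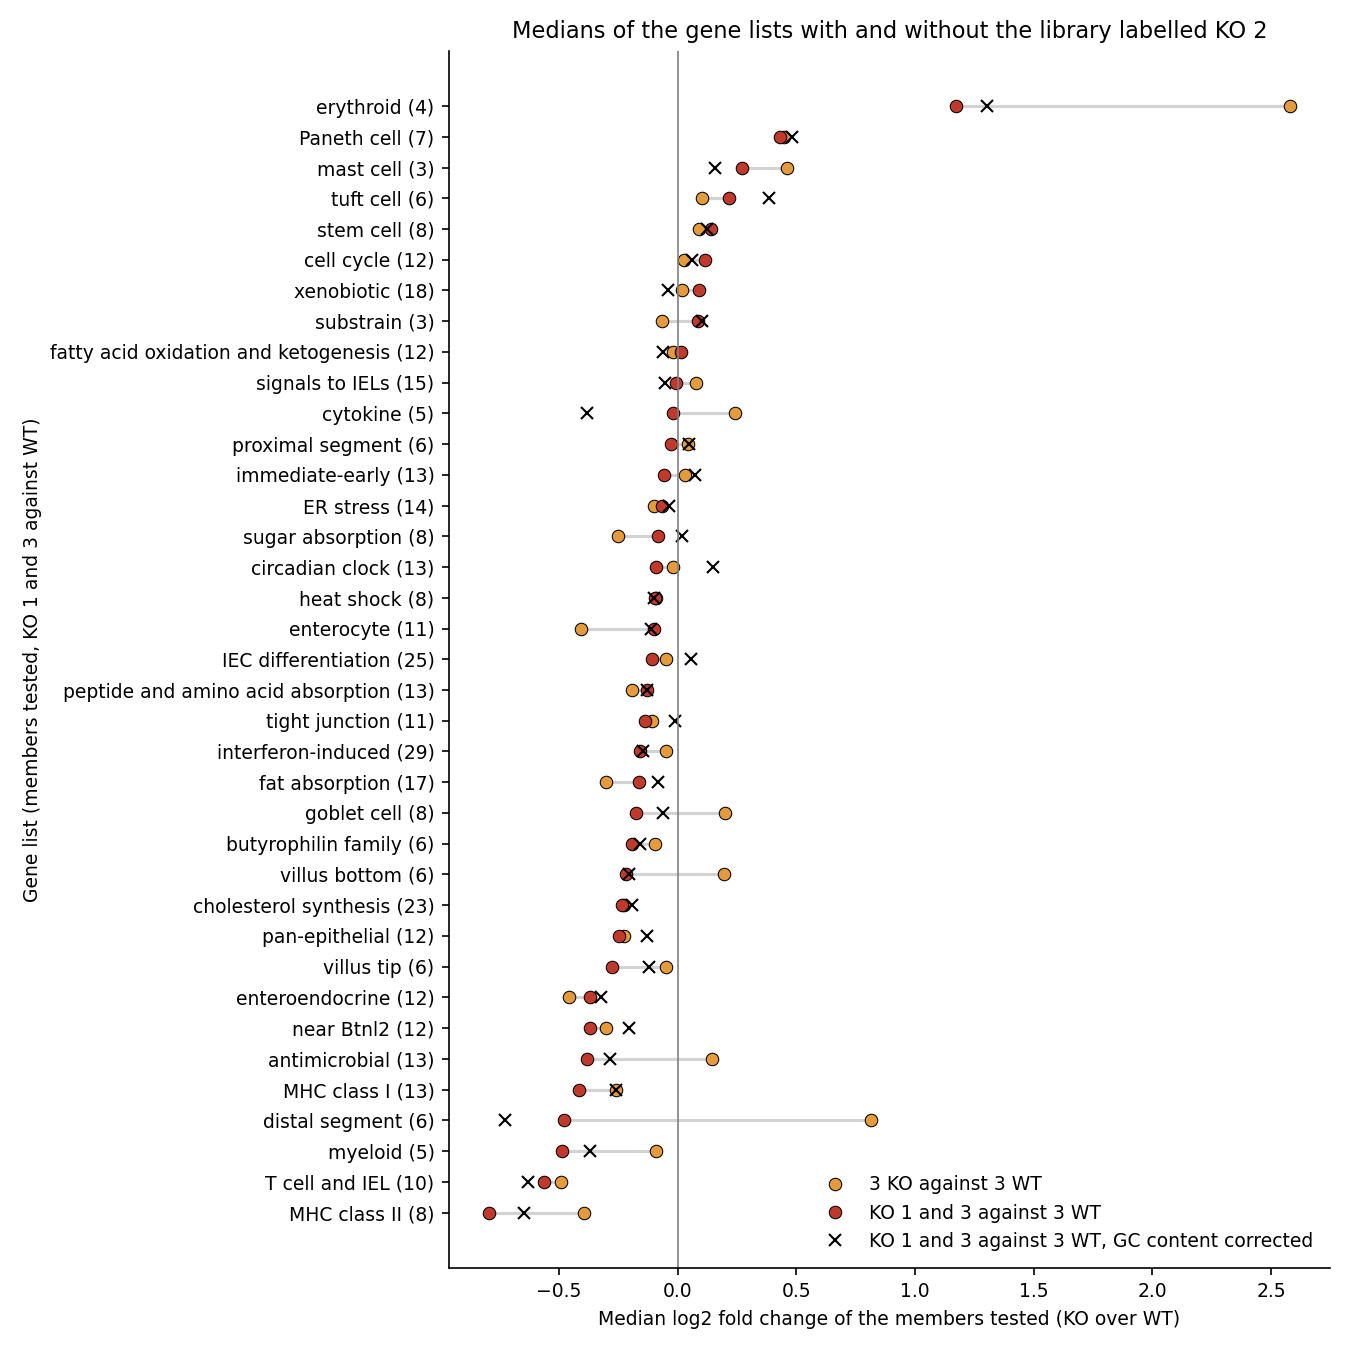
Median log2 fold change (Btnl2-KO over WT) of each gene list, over all 3 Btnl2-KO libraries (orange), over replicates 1 and 3 (red) and over replicates 1 and 3 after GC correction (cross), with the number of members tested (lists with at least 3). MHC class II lies at -0.79 over replicates 1 and 3 and at -0.39 over all 3, and distal segment genes move from 0.81 to -0.48 when the library labelled KO 2 is left out.

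The genes with the lowest p among those without overlap, a fold above 1.5 and a mean of at least 5 CPM are given next, as values and not as calls. Over all 3 libraries the higher ones were led by Reg1, Sgk3, Hbb-b1, Aadac, Crebrf and Pla2g4c, followed by Pdp1, Lipo3, Senp7, Mtm1, Fkbp5 and Rmrp, each at an edgeR FDR of 0.568. Of these 12, Reg1, Sgk3, Aadac, Crebrf, Lipo3, Fkbp5 and Rmrp were also among the first 12 over replicates 1 and 3, where Nceh1, Ggh, Sptssa, Slc30a4 and Mob4 completed the list. Sgk3, a kinase of the growth factor pathway, stood at 8.66, 10.8 and 8.41 CPM in Btnl2-KO and 5.33, 3.44 and 4.42 CPM in WT (log2 fold changes 1.08 and 0.96). Aadac, an esterase of the endoplasmic reticulum, was at 71.6, 112 and 62.3 CPM against 42.5, 42.6 and 30.3 CPM (1.10 and 0.81). WT duodenum held 107 to 145 CPM of Aadac and WT ileum 3.44 and 3.06 CPM, and the part of segment in its jejunal values was not tested.

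Base composition differed within this group. The GC content of the Sgk3 and Aadac transcripts is 38.9% and 42.1%, in the lowest quartile, and their GC-corrected values over all 3 libraries were 0.64 and 0.78. Fkbp5, a glucocorticoid-induced co-chaperone of steroid receptors, has 51.6% and stood at 32.1, 29.1 and 35.0 CPM in Btnl2-KO and 24.1, 17.8 and 19.7 CPM in WT, with a log2 fold change of 0.65 (SE 0.164) before and 0.74 after correction. Rmrp, the RNA of RNase MRP, was at 25.0, 114 and 21.6 CPM against 5.64, 7.77 and 13.1 CPM, with log2 fold changes of 2.61 over all 3 and 1.42 over replicates 1 and 3. For Fkbp5 and Rmrp the correction made the difference larger.

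The lower genes over all 3 libraries were Tmem259, Mospd3, Batf2, Reep6, Cenpv, Crybg2, Dnm1, Ccdc124, Rfng, Chga, Mbd6 and Cebpd, with log2 fold changes of -1.04 (Reep6) to -0.60 (Dnm1). The transcript GC content of Cebpd is 51.6%, and that of the other 11 ran from 57.2% (Batf2) to 63.1% (Mbd6). Batf2, a transcription factor induced by interferon-γ, stood at 9.89, 13.5 and 10.6 CPM in Btnl2-KO and 15.5, 18.9 and 18.2 CPM in WT, with log2 fold changes of -0.63 and -0.77 and GC-corrected values of -0.42 and -0.54. Reep6, a protein of the endoplasmic reticulum membrane, was at 53.5, 42.7 and 54.0 CPM against 61.1, 103 and 147 CPM (log2 fold changes -1.04 and -0.94, and -0.72 and -0.57 after GC correction).

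Over replicates 1 and 3 the lower list was led by Btnl2, Gpx2-ps1, Batf2 and Rps4l and held the class II genes H2-Ab1, Cd74 and H2-DMa, followed by Cacnb3, Hspa1b, Tmem259, Nos2 and Gpx2. Gpx2, the glutathione peroxidase of the gut epithelium, stood at 268, 390 and 298 CPM in Btnl2-KO and 374, 490 and 450 CPM in WT (log2 fold changes -0.62 and, over all 3, -0.45), and replicate 2 lay among WT. Gpx2-ps1 is a pseudogene of Gpx2 and shares its sequence, so their reads may not be told apart.

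**Figure D5:**
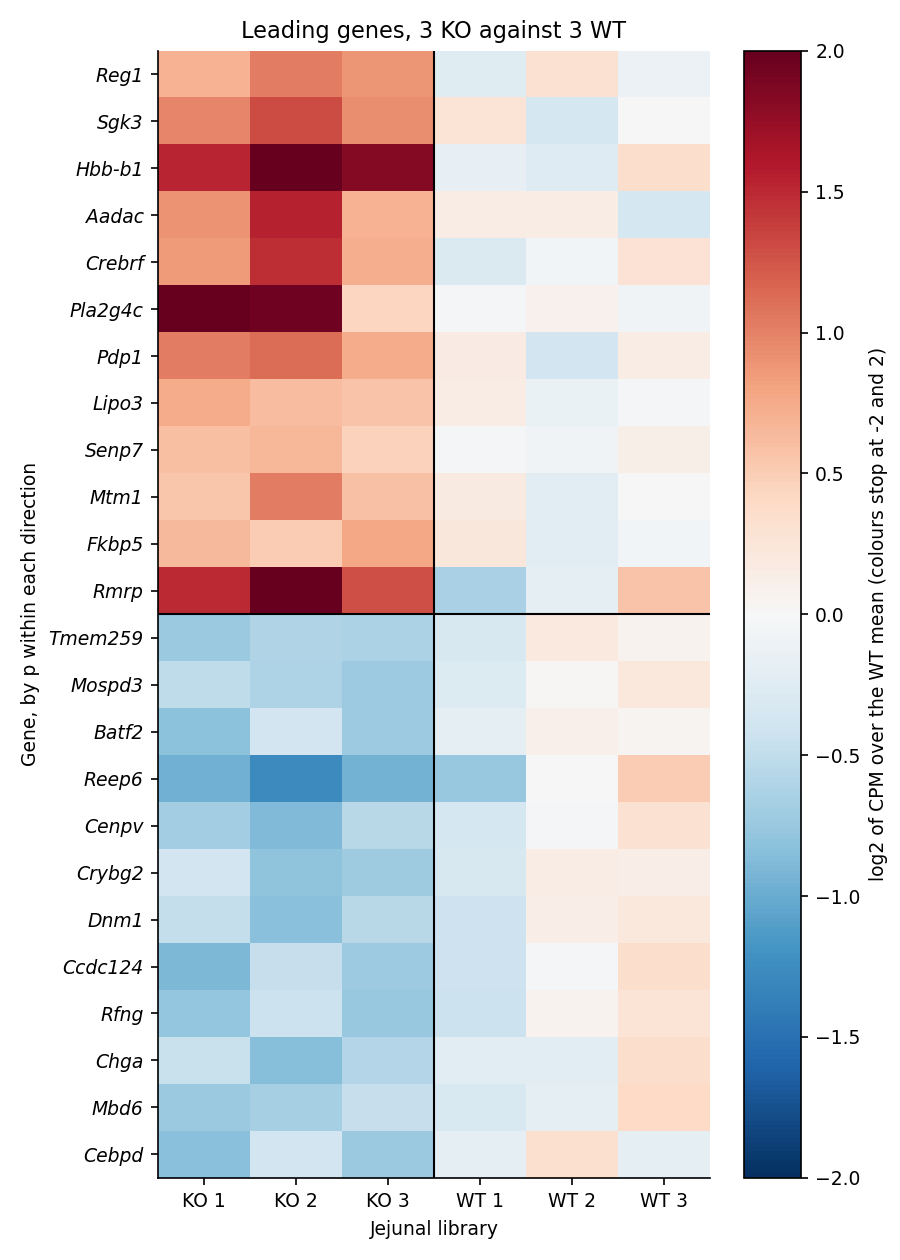
Leading 12 higher and 12 lower genes over all 3 Btnl2-KO libraries, drawn as log2 of CPM over the WT mean in each of the 6 jejunal libraries (red above, blue below). By the rule that chose them all 3 Btnl2-KO libraries lie on one side of WT. Reep6 and Rmrp are examples in which WT libraries differ from each other, at 61.1 to 147 and 5.64 to 13.1 CPM.

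Other cells in the fraction were measured by their markers. All 10 T cell and IEL genes were tested and 0 were at the unadjusted threshold, with medians of -0.49 and -0.56. Their summed level was 148 CPM in WT 1 and 357 and 460 CPM in WT 2 and WT 3, and 255, 415 and 259 CPM in Btnl2-KO, so the groups overlapped. In such libraries fewer cells of a type and less RNA per cell cannot be told apart. Markers of B cells (sums of 2.73 to 8.15 CPM), myeloid cells (41.0 to 73.3 CPM) and mast cells (5.96 to 19.0 CPM) overlapped over all 3 libraries, with the highest B cell and myeloid sums in the library labelled replicate 2. Over replicates 1 and 3 the myeloid sums, 41.0 and 43.7 CPM, lay below every WT library (54.0, 47.4 and 45.1 CPM), as did the 6 class II genes, while B cell and mast cell sums overlapped. Class II genes are also expressed by B and myeloid cells. In replicates 1 and 3 Cd79b and Ms4a1 were lower at the unadjusted threshold among 4 tested B cell genes, beside 2.91% of all genes. Neither exceeded 1.71 CPM in any library. Over all 3 libraries only 2 B cell genes were tested, and 0 were at the unadjusted threshold. The filter of 10 counts in 2 libraries can be met by WT alone, so nothing is read from the count. The part of B and myeloid cells in the class II values was not tested.

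Erythroid genes had higher levels in the jejunal Btnl2-KO libraries than in jejunal WT. Of 8, 4 were tested and all 4 were higher at the unadjusted threshold in both comparisons, with medians of 2.58 and 1.17. Hbb-b1, a β-globin, stood at 3.996, 19.2 and 4.97 CPM in Btnl2-KO and 1.24, 1.17 and 1.77 CPM in WT, with log2 fold changes of 2.76 (SE 0.612) and 1.71 (SE 0.290). It passed in DESeq2, at an adjusted p of 0.00317 and 0.0107, and not in edgeR (FDR 0.568 and 0.667). Hbb-b2 and Hbb-bt held identical values in every library and cannot be told apart. The summed level of the list was 9.78, 31.0 and 12.7 CPM in Btnl2-KO and 3.11, 3.22 and 7.13 CPM in WT, without overlap. In the duodenum Hbb-b1 stood at 7.59 and 10.8 CPM in Btnl2-KO and 3.39, 3.84 and 6.96 CPM in WT. In the ileum it was at 2.10, 3.13 and 4.74 CPM in Btnl2-KO and 13.2 and 3.75 CPM in WT.

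Whether the Btnl2-KO effect in jejunum differed from that in duodenum or ileum was tested across all 16 IEC libraries, and edgeR called 0 of 13344 genes against either segment. At the unadjusted threshold the difference was higher in jejunum for 403 genes and lower for 415 against duodenum, and for 204 and 96 against ileum. Limma-voom also called 0. In 3 Btnl2-KO libraries the segment markers went against the label: beside jejunal replicate 2, the library labelled duodenal replicate 1 held 221 CPM of Fabp6 and the one labelled ileal replicate 1 held 0.240 CPM. The library labelled duodenal replicate 1 also held 5.48 CPM of Btnl2 (122 counts). Apart from it and jejunal replicate 2, Btnl2-KO libraries held 0.339 to 0.596 CPM. Without these 3 libraries the calls were again 0, with duodenal Btnl2-KO then a single library assumed to vary like the other groups.

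For Btnl1 the tests gave no difference between segments beyond their error. The interaction was 0.07 (SE 0.469) against duodenum and 0.15 (SE 0.43) against ileum without the 3 libraries, by edgeR's quasi-likelihood test, and 0.52 (SE 0.409) and 0.36 (SE 0.406) with them. Btnl1 stood at 60.9 and 86.3 CPM in duodenal Btnl2-KO libraries against 135, 206 and 116 CPM in WT. In the ileum it stood at 50.5, 58.0 and 40.4 CPM in Btnl2-KO libraries against 102 and 80.7 CPM in WT. The groups did not overlap in either segment, but the share of all genes without overlap there was not counted. The 60.9 and 50.5 CPM are from libraries against their segment label, and without them the duodenum has 1 Btnl2-KO library. For the 6 class II genes, interactions without the 3 libraries ran from -0.35 (Cd74) to 0.45 (H2-Aa) against duodenum and from -0.87 (Cd74) to -0.47 (H2-Aa) against ileum. Of these H2-Ab1 against ileum had the lowest p (-0.80, SE 0.357, edgeR FDR 1). With all 16 libraries they ran from -1.96 (H2-Aa) to -1.17 (H2-DMa) against duodenum and from -0.18 (H2-DMa) to 0.48 (H2-Aa) against ileum. In the ileum, Btnl2-KO replicates 2 and 3 held 204 and 166 CPM of H2-Ab1 and WT 183 and 225 CPM, with overlap. Cd74, H2-Eb1 and H2-DMa overlapped too. H2-Aa (201 and 131 against 229 and 222 CPM) and H2-DMb1 (37.4 and 29.7 against 37.8 and 38.4 CPM) were lower without overlap. Duodenal Btnl2-KO replicate 2, a single library, lay below every duodenal WT library for these genes except Cd74 (H2-Ab1 at 37.8 against 55.4 to 88.2 CPM).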

How the data were processed

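The deposited table held expected counts per gene, which the authors estimated after mapping reads with ArrayStudio to a mouse genome (GRCm38, per the labels) with RSEM, and did not normalize. The labels name a stranded mRNA kit and the paper's methods another, so strand was not relied on. Expected counts of the 16 IEC libraries were rounded (14.9% of values were not whole). Identifiers without a symbol held 3.41% to 8.85% of jejunal counts and stayed in library sizes.

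Genes with at least 10 counts in at least 3 libraries (2 without Btnl2-KO replicate 2) were tested with edgeR 4.0.16 (TMM, quasi-likelihood test, Benjamini-Hochberg FDR) in R 4.3.3, and called at an FDR below 0.05 and a fold change above 1.5. DESeq2 1.42.0, limma 3.58.1 (voom with quality weights), other filters and size factors, and each library left out were alternatives. The scripts were tested on simulated data. Samples were grouped by labels. Replicates differed by more than counting noise (chi-square per degree of freedom from 36.0), so none was counted as a duplicate. The lists hold up to 30 genes, and members named are those with the lowest p, or the highest level for cell markers; Ang4, Chga, Cck, Pyy, Cd79b, Ms4a1, Tdg and Erdr1 were named after their values were seen. Leading genes are up to 12 per direction by the rule given in the text. Members and lists were chosen with earlier results of these data known. Coordinates and promoters are from RefSeq (GRCm38.p6) and transcript GC content from GENCODE. The precision is set by the 2 or 3 libraries in each group. One result on a withheld item is not reported here.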

Additional observations from a re-analysis of the deposited data

Results flagged for a closer look

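In the comparison of segments, 11 genes named above had all Btnl2-KO libraries on one side of WT in the jejunum and on the opposite side in another segment. These 11 genes came from the leading lists, which were chosen for not overlapping in the jejunum. The share of all genes that change sides in this way was not counted, so nothing is read from their number. The interaction test called none of them, with an edgeR FDR from 0.809 to 1. Against the duodenum, the mean difference between Btnl2-KO and WT on the log2(CPM + 1) scale was 1.02 in the jejunum for Ggh (-0.80 in the duodenum), 0.95 for Mob4 (-0.22), 0.96 for Sptssa (-0.52), 0.55 for Senp7 (-0.34), -0.57 for Mbd6 (0.64), -0.58 for Mospd3 (0.32) and -0.59 for Rfng (0.47). Over jejunal replicates 1 and 3 it was 0.56 for Nceh1 (-0.98 in the duodenum) and -0.93 for Gpx2-ps1 (0.38). Against the ileum it was 0.98 for Crebrf (-0.39 in the ileum), 0.84 for Pdp1 (-0.14) and -0.57 for Mbd6 (0.18). The unadjusted edgeR p of the interaction ran from 0.000507 (Ggh) to 0.159 (Nceh1). One of the 2 duodenal and 1 of the 3 ileal Btnl2-KO libraries carried markers of another segment. Groups of 3 libraries were too small for a test of single outlying values.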

How the results depend on the processing

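No paired analysis was possible because the labels give the libraries no shared replicate numbers. Over all 3 Btnl2-KO libraries edgeR called 0 genes, DESeq2 1 (Hbb-b1) and limma-voom 1 (Btnl2), and leaving out 1 library gave 0 to 1 (Btnl2 without Btnl2-KO replicate 2, Tdg without WT replicate 3). Over replicates 1 and 3 the calls were 1, 3 with DESeq2 (Btnl2, Erdr1, Hbb-b1), 2 with limma-voom (Btnl2, Erdr1), 3 without a filter on low counts (Btnl2, ID807225, Erdr1), 0 with all IEC libraries in 1 fit and 0 to 1 with a library left out. Where that left 1 Btnl2-KO library, it was assumed to vary like WT.

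Genes at the unadjusted threshold numbered 1054 over all 3 libraries and 351 after GC correction (195 higher, 156 lower, against 769 and 285), and 412 to 1796 with a library left out: 1796 without WT replicate 1, 412 without WT replicate 2 and 658 without WT replicate 3. Over replicates 1 and 3 they numbered 835, 1626 with limma-voom, 295 with all IEC libraries in 1 fit, 334 after GC correction (146 higher, 188 lower), and 133 to 2452 with a library left out, 133 without Btnl2-KO replicate 1, 197 without Btnl2-KO replicate 3 and 2452 without WT replicate 1. The split of higher and lower genes over all 3 libraries was 872 and 663 with limma-voom.

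Btnl2 passed over all 3 libraries with limma-voom (log2 fold change -5.83, FDR 0.00857) and without Btnl2-KO replicate 2 (-6.13), within a range of -6.13 to -2.14 with a library left out. Over replicates 1 and 3 it did not pass with all IEC libraries in 1 fit (-6.13, FDR 0.114) or with 4 of the 5 libraries left out in turn (FDR 0.0561 to 0.12), with values of -6.38 (without WT replicate 1, where it passed) to -5.96 over all 5. The value over replicates 1 and 3 is a description for Btnl2. The alternatives were run for 28 other genes over all 3 libraries and 31 over replicates 1 and 3 (the leading genes, Btnl1, Chac1, those any tool called and, over replicates 1 and 3, 6 class II genes), and none of these changed direction (387 and 394 values on the same side of the FDR). Those that passed were Hbb-b1 with DESeq2, Erdr1 with DESeq2, limma-voom and no filter, Tdg without WT replicate 3 and ID807225 with no filter. Other list members were not rerun under each alternative, and of those named Nos2, Saa1, Reg3g, Muc2, Fabp6, Slc10a2 and Btnl6 changed sign when Btnl2-KO replicate 2 was left out.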

Other observations

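Tdg, a thymine DNA glycosylase, varied widely within both genotypes. It stood at 14.4, 12.1 and 12.1 CPM in jejunal Btnl2-KO and 99.5, 78.4 and 7.24 CPM in jejunal WT. In the duodenum it was at 16.8 and 76.3 CPM in Btnl2-KO and 8.02, 8.33 and 84.1 CPM in WT, and in the ileum at 96.5, 85.0 and 43.2 CPM in Btnl2-KO and 34.4 and 82.4 CPM in WT.

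Erdr1, a gene near the end of the X chromosome, was at 0.386, 3.05 and 0.317 CPM in jejunal Btnl2-KO and 2.76, 3.85 and 3.04 CPM in jejunal WT, so the library labelled replicate 2 lay with WT here too. In the duodenum the groups overlapped, with 1.89 and 0.169 CPM in Btnl2-KO and 1.20, 0.880 and 0.681 CPM in WT. In the ileum it was at 1.32, 0.340 and 1.06 CPM in Btnl2-KO and 2.70 and 3.72 CPM in WT, without overlap. The share of all genes without overlap in the ileum was not counted. Both genes were chosen after their values had been seen.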
